A study of Mus musculus with 2 samples.

Results

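The genes described here are 7 microRNA (miRNA) genes best known from epithelia, Mir200a, Mir200b, Mir429, Mir200c, Mir141, Mir203 and Mir205, out of 1973 annotated miRNA genes counted in embryonic mouse heart. They were chosen by symbol, through the GENCODE annotation of mm10, with earlier results of these data known. All 7 had a row in both count files. The libraries were microRNA-seq of total RNA from healthy hearts of strain B6NCrl at embryonic day 15.5, with no treatment or allele named. There is 1 group with 2 biological replicates, both of mixed sex: replicate 1 pooled hearts of 78 embryos and replicate 2 pooled hearts of 62 embryos. A library is thus a pool of whole hearts, in which all cell types of the organ, and any tissue cut out with it, are mixed. No condition can be compared, so the data answer how much of each of the 7 genes was counted and how far the pools differed.

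A miRNA gene makes a hairpin RNA from which a mature strand of about the length of a read is cut. The mature strand pairs with target mRNAs mainly through its seed, bases 2 to 8 from the 5′ end, and lowers their output. The Mir200 family (Mir200a, Mir200b, Mir429, Mir200c and Mir141) is known for holding cells in an epithelial state by repressing Zeb1 and Zeb2, transcription factors that drive the change from epithelium to mesenchyme and that in turn repress the Mir200 genes. Mir203 is known for promoting differentiation of the skin and represses the stem cell factor p63, and Mir205 is a miRNA of stratified and glandular epithelium that also targets Zeb1 and Zeb2. Heart muscle is not an epithelium, and its best known miRNAs include Mir208a, Mir208b and Mir499, which myosin genes host, and Mir1a and Mir133a, which lie elsewhere.

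The best known mature strand of each gene is shown because the seeds decide which genes share targets. Sequences are from RefSeq (GRCm38.p6), where all 7 genes had an entry, and capitals mark the seed.
miR-200b-3p: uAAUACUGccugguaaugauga
miR-429-3p: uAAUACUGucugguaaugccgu
miR-200c-3p: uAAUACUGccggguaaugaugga
miR-200a-3p: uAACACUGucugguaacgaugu
miR-141-3p: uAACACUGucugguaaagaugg
miR-203-3p: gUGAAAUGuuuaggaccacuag
miR-205-5p: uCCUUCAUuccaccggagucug

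The family falls into seed groups of 3 and 2 genes. Mir200b, Mir429 and Mir200c share the seed AAUACUG, and Mir200a and Mir141 share AACACUG. Counting positions from the 5′ end and giving the base of miR-200a-3p first, C4U is the single substitution between these seeds. No other strand among 1738 mature miRNAs in the RefSeq table had either seed, nor had any the seed of miR-203-3p (UGAAAUG) or of miR-205-5p (CCUUCAU). The closest strands within a seed group differed at 2 of 22 bases: miR-200a-3p from miR-141-3p by C17A and U22G, and miR-200b-3p from miR-200c-3p by U11G and A22G. The longest stretch that a hairpin of these genes shared with any of 1893 other annotated hairpins on the same strand was 17 bases, between Mir200a and Mir141. An exact read longer than that has 1 place among these hairpins. Reads with sequencing errors or shortened ends were not examined.

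The family lies in a pair of clusters, and Mir203 and Mir205 each stand alone. On GRCm38 (mm10), Mir200b (chr4:156055681-156055750, minus strand), Mir200a (chr4:156054896-156054985) and Mir429 (chr4:156053905-156053987) follow one another within 1846 bases of chromosome 4. They lie in introns of the protein-coding gene Ttll10 and of the noncoding gene Gm13648, except that Mir429 overlaps an exon of Gm13648. Mir200c (chr6:124718322-124718390, minus strand) and Mir141 (chr6:124717914-124717985) lie within 477 bases of chromosome 6, in an intron of the noncoding gene Gm15884, and Mir141 also overlaps an exon of the transcript model Gm29008. Mir203 (chr12:112130880-112130955, plus strand) lies outside any gene annotated on its strand. Mir205 (chr1:193507463-193507530, minus strand) overlaps an exon of the long noncoding RNA gene 4631405K08Rik.

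Levels are counts on the gene's strand per 1000000 such counts in the library (CPM), with totals of 3439539 counts in replicate 1 and 5833156 in replicate 2. Of all reads, 48.7% and 49.7% were so counted, while 33.0% and 30.1% matched several places and are in no gene count. In replicates 1 and 2, 1 count was worth 0.291 and 0.171 CPM. Counts are per hairpin, so its arms were not told apart, and a ratio between different miRNAs is one of counts that need not be one of amounts. Heart muscle miRNAs that lie in myosin genes were abundant, while Mir1a and Mir133a genes of the same list had counts near 0. The heart muscle list reached 62461 CPM in the first library and 45595 in the second, most of it Mir208b (53878 and 37837 CPM), which lies in a myosin gene. Mir1a-1 had 3 and 4 counts, Mir133a-1 5 and 7 and Mir133a-2 1 and 4, while Mir1a-2 was not analysed here. Since reads that matched several places are left out, these low counts need not be low levels. For the same reason the sum of the list need not be complete. Whether these genes lost reads in this way was not tested.

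All 7 genes were counted in both pools, and together they made up 0.182% of the counts in replicate 1 and 0.630% in replicate 2. The sum was 1821 CPM (exact binomial 95% interval 1776 to 1866) in replicate 1 and 6297 CPM (6233 to 6361) in replicate 2, or 4059 ± 3165 CPM (SD, n = 2). In this bulk tissue, a pool with fewer cells of a type and a pool with less RNA per cell cannot be told apart. Mir429 led in both libraries at 634 and 2239 CPM (1436 ± 1136). Mir200c had 357 and 1672 CPM (1015 ± 930) and Mir205 148 and 852 CPM (500.0 ± 497). Mir200b followed at 231 and 682 CPM (457 ± 319) and Mir203 at 369 and 543 CPM (456 ± 123). Mir141 had 48.0 and 193 CPM (121 ± 103) and Mir200a, the lowest, 34.0 and 115 CPM (74.5 ± 57.3). Every one of the 7 was higher in replicate 2, and for every one the exact 95% intervals of the libraries lay apart.

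**Figure D1:**
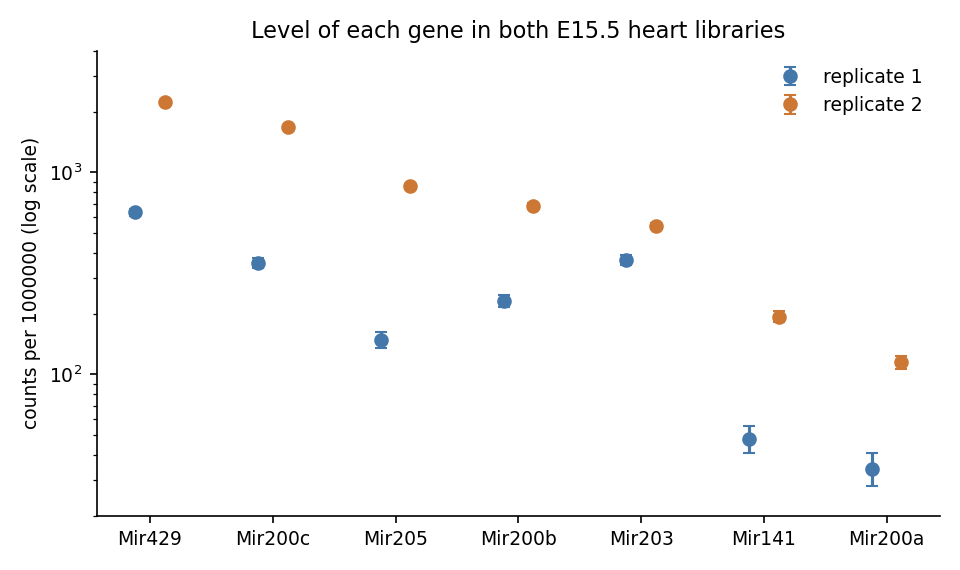
Counts per 1000000 (log scale) of the 7 genes in replicate 1 (blue) and replicate 2 (orange), ordered by mean level, with bars for the exact binomial 95% interval, which covers counting error only. Replicate 2 lies above replicate 1 for each gene, with the smallest gap for Mir203 (369 and 543) and the widest for Mir205 (148 and 852).

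The order of the means was Mir429, Mir200c, Mir205, Mir200b, Mir203, Mir141 and Mir200a. The ranges over the libraries overlapped for each neighbouring pair except Mir203 and Mir141. These ranges leave out that both genes of a pair were counted in the same library. Within a library the order was steadier, and 17 of the 21 pairs of genes had the same order in both. The pairs that changed order were Mir203 with Mir205, Mir203 with Mir200b, Mir203 with Mir200c, and Mir205 with Mir200b. Mir200c and Mir203 were within counting error of each other in replicate 1, at a ratio of counts of 0.968 (exact 95% interval 0.894 to 1.05), while in replicate 2 the ratio was 3.08 (2.96 to 3.21). Among all 1973 genes, Mir429 ranked at place 70 by mean CPM, just below Mir92-1 (1628 ± 170 CPM) and Mir16-1 (1556 ± 249 CPM) and just above Mir425 (1346 ± 100 CPM) and Mir28a (1311 ± 193 CPM). Mir200a ranked at place 206, below Mir539 and Mir29c and above Mir181a-2 and Mir493. These neighbours differed far less between the pools: Mir29c had 81.4 and 67.7 CPM and Mir181a-2 73.6 and 71.5 CPM, against 34.0 and 115 CPM for Mir200a.

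Hairpins of the chromosome 4 cluster, which follow one another on the same strand, gave very unequal counts. Mir200b had 796 and 3979 counts in replicates 1 and 2, Mir200a 117 and 671, and Mir429 2179 and 13063. Mir200a, the middle hairpin, was the lowest of the 3 in both libraries and Mir429, the last, the highest. Mir429 exceeded Mir200a 18.6-fold in replicate 1 (exact 95% interval 15.5 to 22.6) and 19.5-fold in replicate 2 (18.0 to 21.1), a log2 ratio of 4.25 ± 0.045 (SD, n = 2). Mir200b exceeded Mir200a 6.80-fold (5.60 to 8.33) and 5.93-fold (5.46 to 6.44), or 2.67 ± 0.14 on the log2 scale. For both ratios the intervals of the libraries overlapped. The ratio of Mir429 to Mir200b was 2.74 (2.52 to 2.97) in replicate 1 and 3.28 (3.17 to 3.40) in replicate 2, or 1.58 ± 0.19 on the log2 scale, and here the intervals did not overlap. The hairpins at the ends of this range are shown with the mature 3p strand in capitals.
Mir429 hairpin: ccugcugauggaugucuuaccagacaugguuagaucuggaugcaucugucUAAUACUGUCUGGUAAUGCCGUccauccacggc
Mir200a hairpin: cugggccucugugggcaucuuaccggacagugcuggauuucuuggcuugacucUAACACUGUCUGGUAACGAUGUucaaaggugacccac

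On chromosome 6 the first hairpin, Mir200c, held most of the counts. Mir200c had 1227 and 9755 counts and Mir141 165 and 1128. Their ratio was 7.44 (6.32 to 8.80) in replicate 1 and 8.65 (8.13 to 9.21) in replicate 2, with overlapping intervals, or 3.00 ± 0.15 on the log2 scale. The clusters themselves did not hold their proportion as closely. The chromosome 4 cluster summed to 899 and 3037 CPM and the chromosome 6 cluster to 405 and 1866 CPM, so that the ratio of the former to the latter was 2.22 (2.08 to 2.37) in replicate 1 and 1.63 (1.59 to 1.67) in replicate 2. Of all 21 pairs of genes, 16 had a ratio whose intervals did not overlap between the libraries. Of the 4 pairs within a cluster, only Mir429 with Mir200b was among these. Every pair with overlapping intervals held Mir200a or Mir141, whose low counts give wide intervals. Mir429 with Mir141 and Mir141 with Mir200a, which lie across clusters, overlapped as well, so overlap was not particular to pairs within a cluster.

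**Figure D2:**
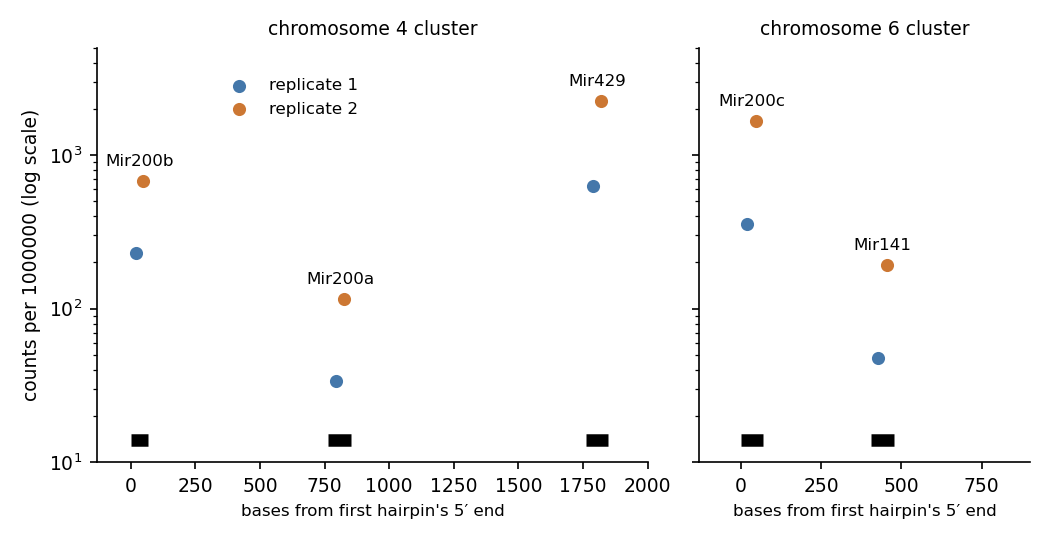
Counts per 1000000 (log scale) of the hairpins of both Mir200 clusters against distance in bases along the transcribed strand from the 5′ end of the first hairpin, for replicate 1 (blue) and replicate 2 (orange). Black bars mark the hairpins, to the scale of each panel, and the points of a hairpin are set slightly apart. Mir200a (34.0 and 115) lies far below Mir200b and Mir429 of the same cluster, and Mir141 (48.0 and 193) below Mir200c.

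The family's hairpins were grouped by the seed of their 3p strand, which is a grouping of genes, since the 5p strands carry other seeds and the counts do not tell the arms apart. The AAUACUG group (Mir200b, Mir429 and Mir200c) had 1222 and 4594 CPM, and the AACACUG group (Mir200a and Mir141) 82.0 and 308 CPM. The AAUACUG group held 93.7% of the family's counts in both libraries, with exact 95% intervals of 93.0% to 94.4% in replicate 1 and 93.4% to 94.0% in replicate 2. The AACACUG group held the other 6.29% in each. This proportion was the same within counting error although the family's sum was 1304 CPM in one library and 4902 CPM in the other and the ratio of the clusters differed. Each cluster contributed to both groups, since Mir200a and Mir141, the low member of its cluster in either case, carry the same 3p seed.

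Mir203 and Mir205, with seeds and genomic places of their own, differed between the libraries to unlike degrees. Mir205 had 510 and 4968 counts and Mir203 1268 and 3167. Mir203 was thus above Mir205 in replicate 1, at a ratio of Mir205 to Mir203 of 0.402 (0.362 to 0.446), and below it in replicate 2, at 1.57 (1.50 to 1.64). As a share of the 7 genes, Mir203 held 20.2% (19.3% to 21.3%) in replicate 1 and 8.62% (8.34% to 8.91%) in replicate 2, while Mir205 held 8.14% (7.48% to 8.85%) and 13.5% (13.2% to 13.9%). The shares of Mir429 (34.8% and 35.6%) and of Mir200a (1.87% and 1.83%) were within counting error of each other in the libraries. For Mir141 (2.63% and 3.07%) the intervals of the libraries overlapped as well. Mir200c made up 19.6% in replicate 1 and 26.6% in replicate 2.

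**Figure D3:**
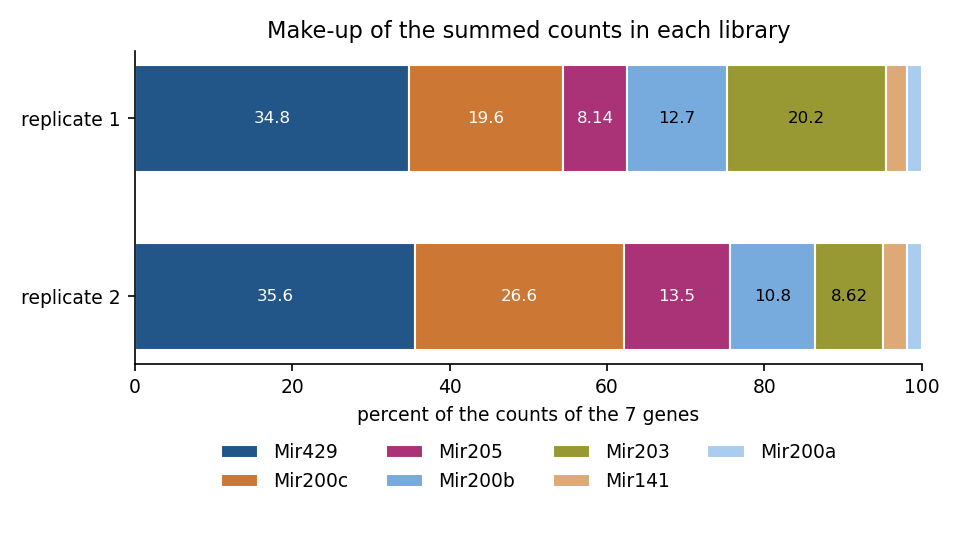
Percent of the summed counts of the 7 genes that each gene held, 1 bar per library. Mir429 holds a like share in both (34.8% and 35.6%), while Mir203 is 20.2% in replicate 1 and 8.62% in replicate 2.

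The difference between the libraries was then set against all genes. Libraries were scaled with TMM (a trimmed mean of log ratios), and the counts of each of 413 genes with at least 10 counts summed were compared by an exact binomial test, two-sided and conditional on their sum, with Benjamini-Hochberg adjustment at 0.05. This sets 1 library against another with counting noise alone, and says nothing of conditions. Genes with few counts pass less readily, so shares over all tested genes are lower than among genes counted as deeply as these 7. All 7 genes passed toward replicate 2, where the share of all tested genes was 24.7% (46.5% in either direction), and the largest adjusted p of this exact binomial test was 1.54e-15, for Mir203. The log2 ratios of replicate 2 to replicate 1, with exact 95% intervals, were 2.35 (2.22 to 2.48) for Mir205, 2.06 (1.97 to 2.14) for Mir200c and 1.84 (1.60 to 2.08) for Mir141. In the chromosome 4 cluster they were 1.65 (1.58 to 1.71) for Mir429, 1.58 (1.30 to 1.88) for Mir200a and 1.39 (1.28 to 1.50) for Mir200b. Mir203 had 0.39 (0.29 to 0.48), a 1.31-fold difference beside 2.61-fold to 5.09-fold for the other 6. Its interval lay apart from all of theirs.

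Placed among all 413 tested genes, Mir205 had the 11th highest ratio toward replicate 2, Mir200c the 20th, Mir141 the 25th, Mir429 the 30th, Mir200a the 32nd, Mir200b the 37th and Mir203 the 106th. The median over the 7 was 1.65, against 0.04 over all tested genes, whose quartiles were -0.23 and 0.39. Since the 7 were chosen with earlier results of these data known, this placement is a description only. The binomial test leaves out the spread between pools. In edgeR's exact test at the common dispersion of both libraries (0.0896, a biological coefficient of variation of 0.299), the spread between the pools counts as noise. With this test 7 of all tested genes (1.69%) passed, all toward replicate 2, and 1 of the 7 epithelial genes did. That gene was Mir205 (edgeR adjusted p = 0.032), followed by Mir200c (0.0634), Mir141 (0.12), Mir429 (0.193), Mir200a (0.255), Mir200b (0.414) and Mir203 (1). The other genes that passed were Mir375, Mir196a-2, Mir20b, Mir363, Mir183 and Mir137. The dispersion is estimated from the same libraries that it then judges.

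**Figure D4:**
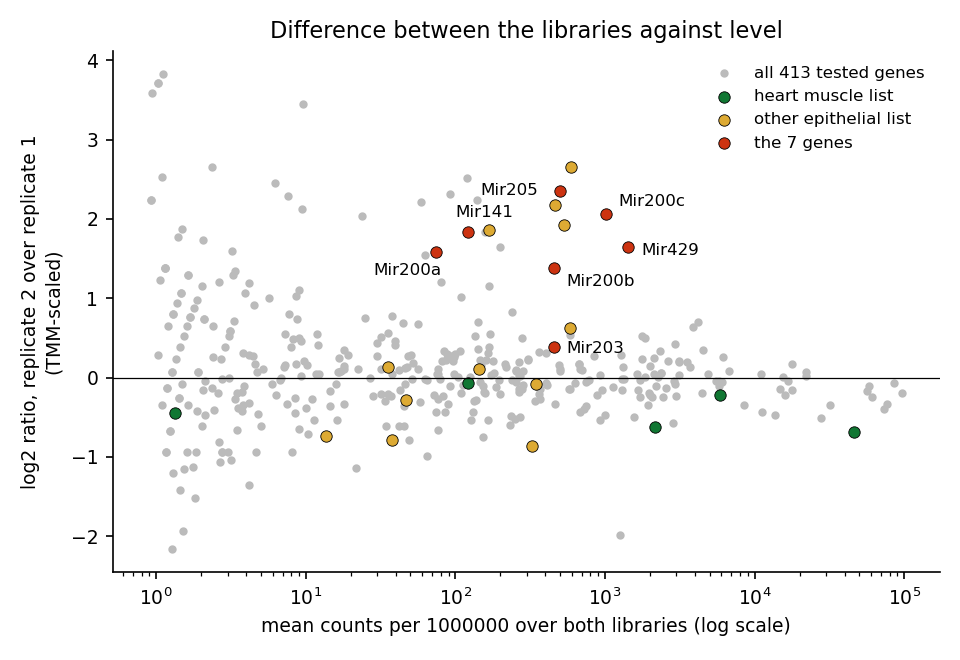
Log2 ratio of replicate 2 to replicate 1 (TMM-scaled) against mean counts per 1000000 (log scale) for the 413 tested genes (grey), with the 7 genes in red and labelled, the other epithelial list in yellow and the heart muscle list in green. Of the 7 genes, 6 lie between 1.39 and 2.35, and Mir203 lies at 0.39.

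Other miRNAs of epithelial organs did not all follow. The counts of 14 such genes added up to 2007 CPM (replicate 1) and 4585 CPM (replicate 2), and of the 12 that were tested 5 passed the exact binomial test toward replicate 2 and 3 toward replicate 1, with a median log2 ratio of 0.12. Over all tested genes the shares were 24.7% toward replicate 2 and 21.8% toward replicate 1, so the count toward replicate 1 is near that of all genes. The cluster of Mir183, Mir96 and Mir182, known from sensory organs and other epithelia, was higher in replicate 2: Mir183 had 152 and 778 CPM, Mir96 66.0 and 271 CPM, and Mir182 202 and 865 CPM. Mir375, a miRNA of endocrine cells, had 146 and 1035 CPM, a log2 ratio of 2.65 that exceeded those of all 7 genes. Mir449a, of multiciliated cells, passed at 431 and 746 CPM. Mir215 (403 and 250.5 CPM) and Mir194-1 (45.6 and 29.8 CPM), both known from the gut, passed toward replicate 1, as did Mir34b (16.3 and 11.0 CPM), which is named after its values were seen. Mir192 (48.8 and 45.3 CPM), Mir194-2 (31.7 and 39.3 CPM), Mir34c (334 and 356 CPM) and Mir31 (129 and 157 CPM) did not pass. With edgeR at the common dispersion, Mir375 (adjusted p = 0.0173) and Mir183 (0.0451) were the members of this list that passed.

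Markers of other cell types and miRNAs of the Hox clusters also differed between the pools, and their part in the values above was not tested. The counts of genes passing stand beside 24.7% of all tested genes toward replicate 2 and 21.8% toward replicate 1, and with so few genes in a list they are descriptions only. Higher sums in replicate 2 were those of the liver miRNA Mir122 (87.2 and 309 CPM), the neural list (172 and 592 CPM, with 3 of 6 tested genes passing and 0 in the other direction) and the Hox list (4514 and 8076 CPM, 5 of 5 passing). In the neural list Mir124a-1, Mir124a-2, Mir124a-3 and Mir9-2 were at 0 in both libraries. Reads that matched several places are in no gene count, so a 0 need not be an absence. Whether these genes lost reads in this way was not tested. Lower in replicate 2 was the sum of the heart muscle list (3 of 5 tested genes passing, with Mir490 at 118 and 126 CPM lower in replicate 2 only after TMM scaling) and so was the endothelial Mir126a (79217 and 67775 CPM). The erythroid list summed to 2457 and 1095 CPM, with 1 of 3 genes passing in each direction. The mesenchyme list summed to 5578 and 8924 CPM, with 2 genes passing toward replicate 2 and 1 toward replicate 1. The leukocyte list summed to 564 and 815 CPM, with 3 of 4 passing toward replicate 2, and the smooth muscle list to 83564 and 89291 CPM, with both genes passing toward replicate 1 after TMM scaling, although Mir143 had 82454 and 88393 CPM.

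**Figure D5:**
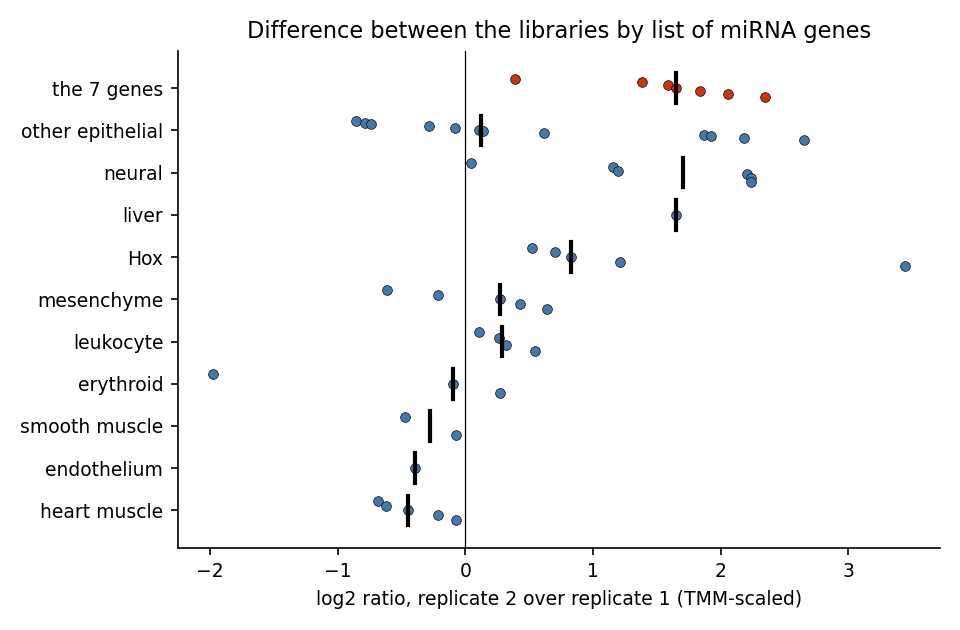
Log2 ratio of replicate 2 to replicate 1 (TMM-scaled) for the tested genes of each list, 1 point per gene, with a black line at the median of the list. The 7 genes (red) have a median of 1.65 and the other epithelial list 0.12, and all tested heart muscle genes lie below 0, where Mir490 (118 and 126 CPM) would lie above it without TMM scaling.

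The genes most like the group in this difference were sought among other genes with a mean of at least 100 counts, by the distance of their log2 ratio from the group's median of 1.65. With only 2 libraries, likeness here is that of 1 ratio. The nearest were the liver miRNA Mir122 (1.65), Mir92-2 (1.55), Mir106a (1.83), Mir96 (1.87) and Mir182 (1.92). In all, 26 other tested genes had a ratio at or above the group's median.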

How the data were processed

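The authors deposited, for each of the 2 libraries, whole unnormalized read counts per miRNA gene. Per the file headers deposited beside them, reads were placed on mm10 and counted on GENCODE M4. The aligner, the trimming and the counter were not given in the sources used here. Of the 3 count columns (either strand, gene's strand, opposite strand), the gene's strand was used. Lines that name no gene were left out. Gene IDs were matched without version to GENCODE M21 of the same assembly (1894 of 1973 matched). The members and lists were chosen with earlier results of these data known. The 10 other lists, of cell types and of the Hox clusters, held 55 symbols, of which 53 matched.

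Intervals are exact (Clopper-Pearson, 95%). Without molecular identifiers in these counts, intervals cover counting error only. TMM factors (0.942 and 1.06) and the exact test at a common dispersion came from edgeR 4.0.16 in R 4.3.3. DESeq2 1.42.0 gave alternative size factors. The quasi-likelihood test needs residual degrees of freedom, and a comparison of single libraries leaves none, so it was not used. Python 3.11.15, numpy 2.4.6, pandas 2.3.3, scipy 1.17.1 and matplotlib 3.10.9 did the rest. The comparison was tested on simulated counts with counting noise alone, which leave out the spread between pools. Beside the 7 genes, the text names by rule the 5 genes with the nearest log2 ratio, the rank neighbours of the highest and lowest gene, and other epithelial genes averaging 100 counts or more. Further genes named were chosen after their values were seen. Alternatives were total counts, DESeq2 size factors, either strand, no filter, at least 100 counts summed, and other denominators.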

Additional observations from a re-analysis of the deposited data

Results flagged for a closer look

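Reads on the strand opposite a gene entered only the alternative with counts on either strand. They exceeded the 3 counts that a count of 0 allows at Mir203 and Mir200a. Mir203 had 22 opposite counts in replicate 1 and 31 in replicate 2, or 1.71% and 0.969% of its counts on either strand. RefSeq places the hairpin of mmu-miR-203b there, on the minus strand at chr12:112130887-112130946 (GRCm38.p6, gene Gm51289), which was not among the counted genes. Mir200a had 1 opposite count in replicate 1 and 4 in replicate 2. The other 5 genes had 0 in both libraries, as did 296 of the 327 genes with at least 10 counts in both.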

How the results depend on the processing

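All 7 genes were higher in replicate 2 and passed the exact binomial test with total counts, with DESeq2 size factors, with counts on either strand, without a filter and with at least 100 counts summed. In that order, the shares of all tested genes that passed in either direction were 49.2%, 45.5%, 47.3%, 26.2% and 65.7%. Passing was thus common among genes with at least 100 counts summed, where 92 of 274 passed toward replicate 2. Over all 6 alternatives the log2 ratio ranged from 0.36 to 0.56 for Mir203 and from 2.32 to 2.52 for Mir205. With edgeR's exact test at the common dispersion 1 of the 7 passed, and 7 of all genes in place of 192. Total counts in place of TMM moved the median log2 ratio of all tested genes by 0.17 toward replicate 2, and 76.4% of the 203 calls then lay toward replicate 2, against 53.1% of the 192 with TMM. On either strand the AAUACUG group held 93.69% of the family's counts, which differs from 93.71% by more than the very small SD of 0.0015 percentage points between the libraries. Per 1000000 of all reads, rather than of gene counts, every level was lower by about the same factor, with a sum of 2009 in place of 4059. Leaving out a library leaves the other's value, which the text gives. No paired analysis was possible because there is 1 group. The depth left every one of the 7 genes well above 0 (the lowest count was 117), but gave Mir200a and Mir141 wide intervals. With 2 pools, the number of pools limits every comparison.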
